A study of Mus musculus with 6 samples.

Results

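Most SLC25 genes encode carriers that move metabolites across the inner mitochondrial membrane. The family was followed here in mouse bone marrow mesenchymal stem cells with RIOK3 knocked down. Members were the protein-coding genes of the count table whose symbol begins with Slc25a and a digit, which gave 44 of 22030 genes. Of these, 37 had enough reads to be tested, among 13067 tested genes. Mesenchymal stem cells of the marrow are stromal cells able to give rise to osteoblasts, adipocytes and chondrocytes, and the study asked how RIOK3 bears on their osteogenic differentiation. Polyadenylated RNA was sequenced in 6 libraries. The 3 knockdown libraries are titled siRIOK3 and labelled as RIOK3 knockdown, and the 3 control libraries are titled siNC and labelled as wild type. The design text speaks both of stable lentiviral lines and of a knockout, so the agent that lowered RIOK3, and what the control cells carried, remain unclear from the labels. The sources used here name no strain, age, culture medium or time of harvest and do not say whether replicates were separate cultures. Each p-value therefore reflects only how these libraries spread, which may be technical.

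Each carrier of the family has a characteristic fold of repeated transmembrane segments and is made in the cytosol. Most are inserted into the inner membrane by the TIM22 complex. The best known members exchange ADP for ATP, import phosphate, and pass citrate, malate, amino acids, carnitine esters, cofactors and iron between the matrix and the cytosol. In stromal cells they connect respiration in the matrix with biosynthesis in the cytosol.

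The libraries held 28327612 to 32569544 counts. Riok3, which encodes an atypical kinase of the RIO family, had 32.1, 31.5 and 37.2 CPM (counts scaled to TMM-adjusted library size) in knockdown libraries, against 143, 193 and 135 CPM in control libraries. That is a log2 fold change of -2.23 ± 0.18 (SE, edgeR, adjusted p = 0.000127). Control replicate 2 stood apart: its rank correlation over genes with the other control libraries was 0.963 and 0.968, while every other pair within a group reached 0.996. Results that rest on it are therefore given with and without it. Of 11 marrow stromal markers, 11 were in the table and 10 were tested, of which 3 rose (Pdgfrb, Eng and Ly6a) and 5 fell (Pdgfra, Nt5e, Cd44, Itgb1 and Vcam1). Their summed level was 458 to 483 CPM in knockdown libraries and 626 to 751 CPM in control libraries, so that the level of the labelled cell type's own markers moved with the groups. Of 7 erythroid markers only Alas2 and Klf1 were listed, at no more than 5 counts in any library. The leukocyte markers summed to 46.5 to 51.7 CPM in knockdown libraries and 26.6 to 43.2 CPM in control libraries, nearly all of it Cd68, while Ptprc had at most 1 count in a knockdown library and 3 counts in a control library. The endothelial markers summed to 8.30 to 8.79 CPM in knockdown libraries and 3.13 to 8.02 CPM in control libraries. The adipocyte markers summed to 1.21 to 1.96 CPM in knockdown libraries and 4.92 to 10.1 CPM in control libraries. The endothelial sum came mostly, and the adipocyte sum nearly all, from a single gene each, so neither describes its list as a whole. In bulk RNA fewer cells of a type and less RNA per cell cannot be told apart, and the part of these shifts in the results below was not tested.

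Among the tested carriers, 11 rose and 7 fell in the knockdown at an adjusted p under 0.05, and 19 did not pass the test. The share of all tested genes that passed was 48% (21.1% higher and 26.8% lower), so the 18 called carriers of 37 sit near the background. The median log2 fold change was -0.10 over the carriers and 0.01 over all tested genes. Expression values of the groups did not overlap for 24 carriers, 14 higher and 10 lower, against a background of 62.1% of genes (30.8% higher and 31.3% lower). These were the 18 called carriers and Slc25a3, Slc25a22, Slc25a28, Slc25a40, Slc25a44 and Slc25a51. The remaining 7 members, Slc25a2, Slc25a18, Slc25a31, Slc25a34, Slc25a41, Slc25a43 and Slc25a45, never exceeded 10 counts in a library and were not tested. Leaving out control replicate 2 gave 14 higher and 13 lower carriers, with 71.6% of all genes called (35.1% higher and 36.5% lower). Leaving out any of the other 5 libraries gave 7 or 8 higher and 5 or 7 lower carriers, with 12.3 to 16.4% of all genes called higher and 20.1 to 23.2% lower.

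**Figure D1:**
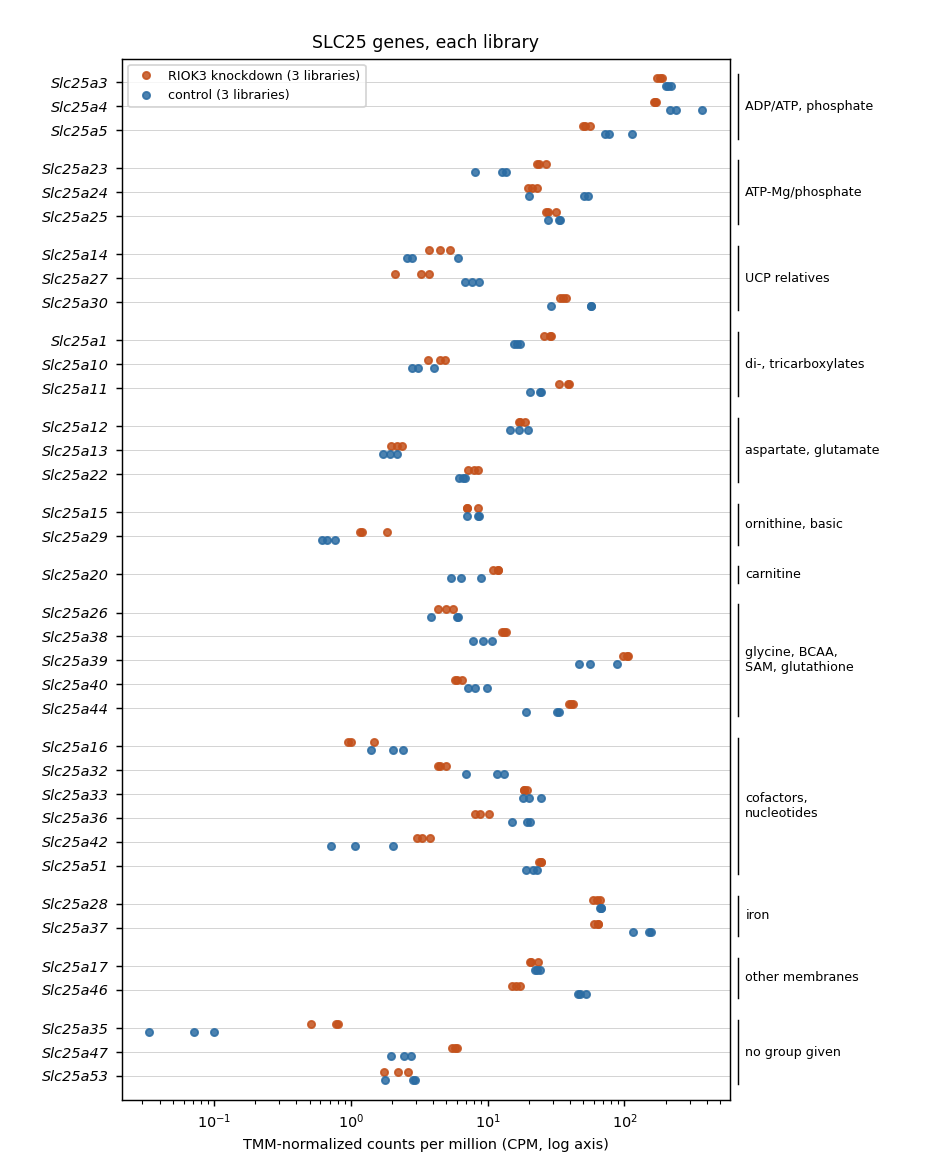
Level of 36 tested SLC25 genes in each library, as TMM-normalized CPM on a log axis, with knockdown points (orange) above control points (blue) and genes grouped by what they carry. Knockdown libraries lie close together, while control replicate 2 often sits apart from the other control libraries, as for Slc25a4, Slc25a24 and Slc25a30.

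Over the family as a whole, though not within each substrate group, the fold change was higher for carriers with more GC in the transcript. Over the 37 carriers the rank correlation of the log2 fold change with transcript GC content was 0.69, beside 0.70 over 13043 genes. These are descriptions, since genes of a library share its preparation and depth. Of the 12 carriers with at least 55% GC, 8 rose and 0 fell, while of the 7 with under 45% GC, 0 rose and 3 fell. Over all tested genes, 45.8% rose and 2.04% fell at 55% GC or above, and 0.784% rose and 74.1% fell under 45% GC. The slope of log2 CPM on GC content was 0.564 to 0.662 per 10 points of GC in knockdown libraries and -0.794 to -0.450 in control libraries, each relative to the mean of the libraries. When the trend of each library on transcript GC was removed as an offset in the fit, 7 carriers were called higher and 6 lower, with 31.6% of all genes called (16.3% higher and 15.2% lower). The carriers that kept their call under that offset, and also with transcript length added, with the mean GC of a gene's transcripts or with the GC of the coding part, were Slc25a35 and Slc25a47 (higher) and Slc25a4, Slc25a27 and Slc25a37 (lower). Riok3 itself was still called lower with the GC offset (-1.20, adjusted p = 0.0105). What produced the trend was not tested.

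**Figure D2:**
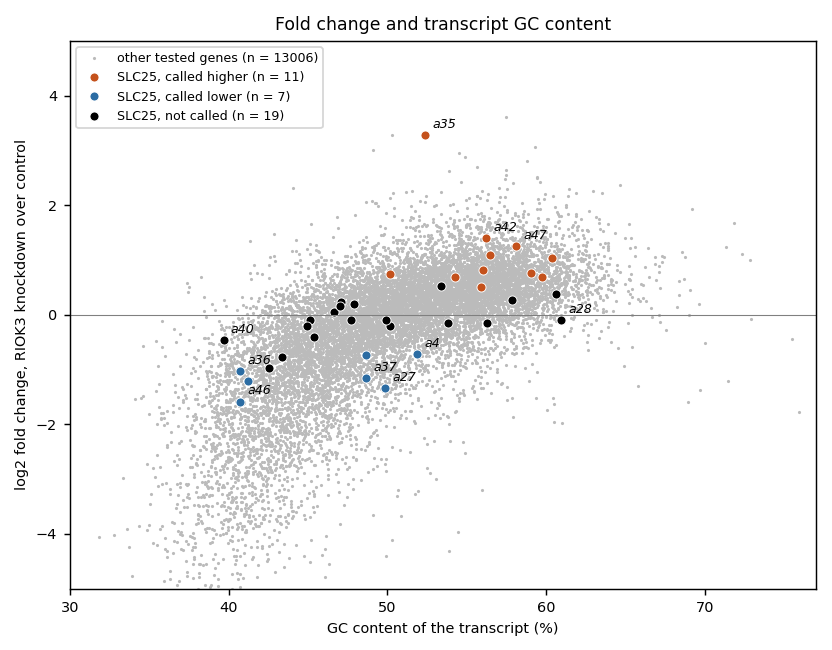
Log2 fold change (RIOK3 knockdown over control) against the GC content of the transcript, for the 37 tested SLC25 genes (coloured by call) over 13006 other genes (grey); 37 other genes lie outside the plotted range. The called-higher carriers lie at 50.1% GC or above and the carriers with under 45% GC all lie below 0.

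On the authors' FPKM scale, which divides by gene length and so allows genes to be compared, 30 of the 44 members averaged at least 1 FPKM over the 6 libraries and 9 at least 10 FPKM. Slc25a4 was the most abundant, at 75.7 ± 1.27 FPKM in knockdown libraries and 103 ± 29.7 FPKM in control libraries (SD, n = 3 each). Slc25a5 averaged 34.0 FPKM in knockdown libraries and 46.8 FPKM in control libraries, and Slc25a39 averaged 39.7 FPKM in knockdown libraries and 20.3 FPKM in control libraries. Slc25a3 averaged 34.8 FPKM in knockdown libraries and 33.3 FPKM in control libraries, and Slc25a28 averaged 17.8 FPKM in knockdown libraries and 15.8 FPKM in control libraries. FPKM follows library totals, and on the TMM scale these last 2 carriers were slightly lower in the knockdown; neither was called. The ranges of Slc25a4 and Slc25a5 over the 6 libraries did not overlap, whereas each of the other neighbours in the order down to Slc25a28 overlapped. Summed over the family, the level was 339.6, 344 and 339.9 FPKM in knockdown libraries and 320.0, 377 and 322 FPKM in control libraries. The groups overlapped through control replicate 2 alone, since the other controls lay below every knockdown library. The sum also follows library totals. TMM factors were 1.08 to 1.10 in knockdown libraries and 0.895 to 0.942 in control libraries, so TMM scaling lowers the knockdown sums and raises the control sums. Slc25a4 alone made up 21.9 to 22.7% of the family sum in FPKM in knockdown libraries and 25.7 to 36.3% in control libraries.

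**Figure D3:**
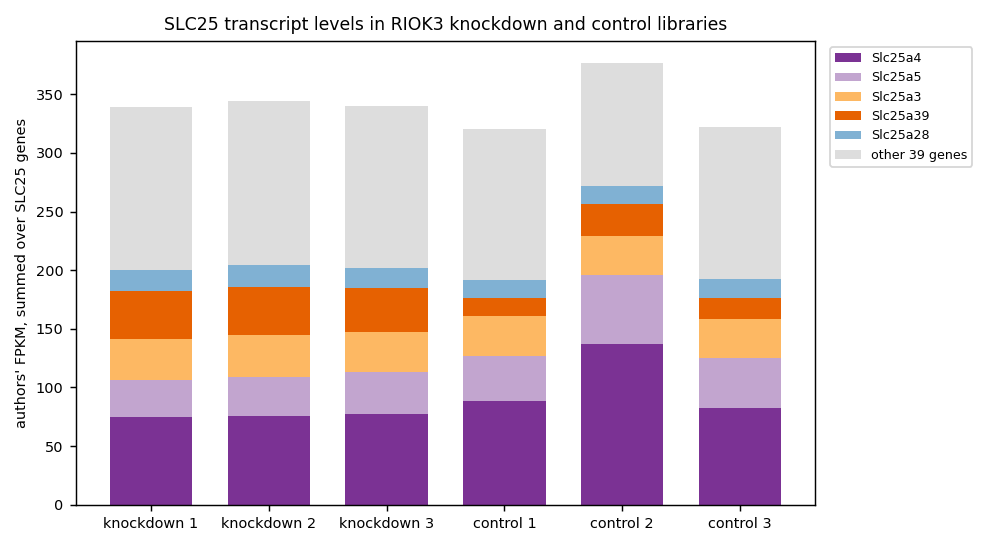
Authors' FPKM of the 5 most abundant SLC25 genes and of the other 39 together, stacked for each library. The knockdown totals lie between 339.6 and 344 and the control totals between 320.0 and 377, with the Slc25a4 segment largest in control replicate 2.

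The ADP/ATP carriers were lower in the knockdown, and the phosphate carrier did not pass the test. Slc25a4, the ADP/ATP carrier of heart and muscle also known as ANT1, had 166, 166 and 169 CPM in knockdown libraries, against 238, 371 and 215 CPM in control libraries. All knockdown values lay below all control values, with control replicate 2 highest. Its log2 fold change was -0.72 ± 0.21 (SE, adjusted p = 0.0279), and with the GC offset it was -0.93 (adjusted p = 0.027). Slc25a5, the broadly expressed ANT2, had 49.8, 51.6 and 55.6 CPM in knockdown libraries, against 72.3, 113 and 77.2 CPM in control libraries. The groups again did not overlap and control replicate 2 was again highest, and the log2 fold change was -0.74 ± 0.19 (adjusted p = 0.0167), or -0.59 with the GC offset (adjusted p = 0.102). Leaving out knockdown replicate 1, 2 or 3 ended both calls, with adjusted p of 0.0948, 0.0965 and 0.0907 for Slc25a4 and 0.0738, 0.0710 and 0.0543 for Slc25a5. The log2 fold changes in those fits were -0.72 to -0.71 for Slc25a4 and -0.78 to -0.70 for Slc25a5. Without control replicate 2 both were called, with smaller log2 fold changes of -0.44 for Slc25a4 and -0.51 for Slc25a5 (adjusted p = 8.2e-06 and 7.8e-06). Scaling by library totals ended both as well (adjusted p = 0.0854 and 0.0562). The ratio of Slc25a4 to Slc25a5 in FPKM was 2.32, 2.25 and 2.12 in knockdown libraries and 2.30, 2.29 and 1.95 in control libraries, which overlap. These paralogs are similar in sequence, so reads may have been shared between them or with processed copies in the counting. Slc25a3, which brings phosphate into the matrix, had 182, 187 and 174 CPM in knockdown libraries and 218, 209 and 202 CPM in control libraries. These did not overlap, but the log2 fold change of -0.21 ± 0.11 did not pass (adjusted p = 0.153), and it passed without control replicate 2 (-0.21, adjusted p = 0.0061). Slc25a31, the germ-cell ADP/ATP carrier, had 1 count in all libraries together.

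Since Slc25a4 and Slc25a5 were lower together, the 250 bases before their RefSeq starts (GRCm38.p6) are shown, from chr8:46211063-46211312 on the minus strand and chrX:36795347-36795596 on the plus strand. Capitals mark any of 6 searched motifs on either strand: GCGCANGC (core of the NRF1 motif), CCGGAAG (the ETS motif bound by GABPA), TGACGTCA (CRE), GGGCGG (GC box), CCAAT and CACGTG (E-box).
Slc25a4: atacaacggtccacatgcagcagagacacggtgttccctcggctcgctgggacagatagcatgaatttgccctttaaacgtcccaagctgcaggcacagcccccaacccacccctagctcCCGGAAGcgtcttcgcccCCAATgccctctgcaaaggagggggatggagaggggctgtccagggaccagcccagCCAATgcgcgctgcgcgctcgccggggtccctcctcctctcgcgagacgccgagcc
Slc25a5: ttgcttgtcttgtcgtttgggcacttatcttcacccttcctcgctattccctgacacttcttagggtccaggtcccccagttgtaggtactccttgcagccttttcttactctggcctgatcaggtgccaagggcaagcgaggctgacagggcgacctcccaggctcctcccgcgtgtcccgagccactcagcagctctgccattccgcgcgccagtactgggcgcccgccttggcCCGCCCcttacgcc
The Slc25a4 window holds 1 ETS and 2 CCAAT matches and the Slc25a5 window 1 GC box, so the windows share none of the 6 motifs. Promoter windows were matched for 33 of the 44 members (42 windows). GGGCGG was found in 73.8% of them and in 32.7% of all 32851 windows, CCGGAAG in 11.9% and 6.91%, and CCAAT in 47.6% and 33.8%. GCGCANGC was found in 9.52% of member windows and 8.30% of all, TGACGTCA in 4.76% and 1.55%, and CACGTG in 19.05% and 6.02%. The median GC content was 57.8% in member windows and 52.4% in all windows, which bears on motifs rich in G and C. A match is a description of letters and not of binding.

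The ATP-Mg/phosphate carriers, which adjust the adenine nucleotide pool of the matrix and are mostly regulated by calcium, gave 1 call, for Slc25a23. It had 26.7, 23.6 and 22.8 CPM in knockdown libraries, against 13.7, 8.09 and 12.7 CPM in control libraries. Every knockdown library was above every control library, with a log2 fold change of 1.08 ± 0.21 (adjusted p = 0.00566), or 0.56 with the GC offset (adjusted p = 0.0887). Slc25a24 had 22.8, 21.1 and 19.7 CPM in knockdown libraries, against 54.0, 20.2 and 50.6 CPM in control libraries. Here control replicate 2 alone lay within the knockdown range, and the log2 fold change of -0.97 ± 0.35 did not pass (adjusted p = 0.053). Without that library it was -1.30 (adjusted p = 3.5e-10), and with the GC offset 0.47 (adjusted p = 0.219). Slc25a25 did not pass either (-0.14 ± 0.14, adjusted p = 0.43), though it was called lower with the GC offset (-0.66, adjusted p = 0.0119) or without control replicate 2 (-0.23, adjusted p = 0.0268). Its gene overlaps Naif1, which rose. Slc25a41 had 1 count in all libraries together. The ratio of Slc25a23 to Slc25a24 in FPKM was 0.757, 0.725 and 0.750 in knockdown libraries and 0.164, 0.259 and 0.163 in control libraries. The groups did not overlap, with an exact permutation p of 0.1 (two-sided), the smallest that 3 against 3 allow, and an adjusted p of 0.15 over the 6 gene pairs compared. Their transcripts have 56.4% and 42.5% GC, and with the GC offset the difference of the log2 fold changes shrank to 0.08, from 2.05 without it.

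Slc25a27 was the called member among the relatives of the uncoupling proteins. It encodes UCP4, known mainly from brain, and had 2.11, 3.73 and 3.28 CPM in knockdown libraries, against 6.88, 8.59 and 7.75 CPM in control libraries. The highest knockdown value was below the lowest control value. The level was 2.54-fold lower in the knockdown (log2 fold change -1.35 ± 0.24, adjusted p = 0.00348), and with the GC offset the change was -1.33 (adjusted p = 0.00843). It was called lower in each of the 23 alternative fits. Slc25a14 (UCP5) and Slc25a30 (the kidney carrier KMCP1) overlapped between groups and did not pass, with log2 fold changes of 0.24 ± 0.36 and -0.42 ± 0.26. For both of them control replicate 2 was the library out of step: Slc25a14 had 6.11 CPM there and 2.79 and 2.59 CPM in the other control libraries, and Slc25a30 had 28.9 CPM there and 56.5 and 56.9 CPM in the others. Without it they were called, higher for Slc25a14 (0.74, adjusted p = 0.0033) and lower for Slc25a30 (-0.67, adjusted p = 3.7e-07).

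Carriers of citrate and oxoglutarate rose. Slc25a1, which exports citrate for fatty acid and sterol synthesis, had 29.2, 28.5 and 25.6 CPM in knockdown libraries, against 17.2, 16.2 and 15.5 CPM in control libraries. The groups were well apart, with a 1.70-fold higher level in the knockdown (log2 fold change 0.77 ± 0.13, adjusted p = 0.00256). Slc25a11, the oxoglutarate and malate carrier of the malate-aspartate shuttle, had 38.9, 39.6 and 33.2 CPM in knockdown libraries, against 24.6, 20.5 and 24 CPM in control libraries. It did not overlap between groups either and was 1.62-fold higher (0.69 ± 0.14, adjusted p = 0.00628). With the GC offset neither passed (0.13 and 0.32, adjusted p = 0.451 and 0.104). The gene of Slc25a11 overlaps Rnf167, which had 18.1 ± 0.87 CPM in knockdown libraries and 18.96 ± 4.0 CPM in control libraries (SD, n = 3 each) and was not called; the sources used here do not say whether counting used strand. Slc25a10, the dicarboxylate carrier, overlapped between groups and did not pass (0.38 ± 0.21, adjusted p = 0.176), but did without control replicate 2 (0.55, adjusted p = 0.0168).

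The aspartate and glutamate carriers did not pass the test. Slc25a12 and Slc25a13, the calcium-regulated aspartate/glutamate exchangers aralar and citrin, had 17.7 ± 0.94 and 2.16 ± 0.21 CPM in knockdown libraries and 17.1 ± 2.58 and 1.94 ± 0.23 CPM in control libraries (SD, n = 3 each). Their groups overlapped, and so did the ratio of Slc25a12 to Slc25a13 in FPKM. Slc25a22, a glutamate carrier, had 8.45, 7.24 and 7.89 CPM in knockdown libraries and 6.61, 6.87 and 6.20 CPM in control libraries, which did not overlap, with an adjusted p of 0.166. With the GC offset Slc25a13 was called higher (0.59, adjusted p = 0.0453).

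Slc25a20 and Slc25a29 rose, though their calls ended when some libraries were left out. Slc25a20, which exchanges acylcarnitines for carnitine and feeds fatty acids to beta-oxidation, had 12, 11.9 and 10.9 CPM in knockdown libraries, against 5.44, 8.92 and 6.37 CPM in control libraries. The groups did not overlap, and the log2 fold change of 0.75 ± 0.20 (adjusted p = 0.0201) moved little with the GC offset (0.72, adjusted p = 0.0551). The call ended without knockdown replicate 1, 2 or 3 (adjusted p = 0.0711, 0.0704 and 0.0523) and without control replicate 1 or 3 (0.0564 and 0.0701), with log2 fold changes of 0.60 to 0.80 in these 5 fits. Without control replicate 2 the gene was called, at 0.97 (adjusted p = 4.3e-06). Slc25a29, a carrier of basic amino acids, had 39, 61 and 36 counts in knockdown libraries, against 23, 17 and 20 counts in control libraries. Summed, this is a ratio of 2.05 after scaling, with an exact 95% interval of 1.5 to 2.83 that covers counting error only. Its log2 fold change was 1.03 ± 0.29 (adjusted p = 0.0238), not called without knockdown replicate 2 (0.80, adjusted p = 0.099), without control replicate 3 (1.015, adjusted p = 0.0671) or with the GC offset (0.35, adjusted p = 0.394). Slc25a15, the ornithine/citrulline carrier of the urea cycle, overlapped between groups (-0.10 ± 0.16), and Slc25a2, its relative, had no more than 6 counts in any library. The upstream window of Slc25a20, at chr9:108661886-108662135 on the plus strand and marked as above, holds 1 ETS match and 3 GC boxes.
Slc25a20: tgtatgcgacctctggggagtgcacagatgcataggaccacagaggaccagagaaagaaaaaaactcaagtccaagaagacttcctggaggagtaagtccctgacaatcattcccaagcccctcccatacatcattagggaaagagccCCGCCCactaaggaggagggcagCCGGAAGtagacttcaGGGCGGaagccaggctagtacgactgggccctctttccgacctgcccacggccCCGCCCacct

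Among the carriers of glycine, branched-chain amino acids, S-adenosylmethionine and glutathione, Slc25a38 and Slc25a39 rose. Slc25a38, which brings glycine into the matrix for heme synthesis, had 13.6, 13.1 and 12.7 CPM in knockdown libraries, against 7.79, 10.7 and 9.2 CPM in control libraries (log2 fold change 0.51 ± 0.16, adjusted p = 0.0316). Slc25a39, the glutathione carrier, had 105, 104 and 97.5 CPM in knockdown libraries, against 46.2, 88.1 and 56.2 CPM in control libraries (0.69 ± 0.24, adjusted p = 0.047). Neither gene overlapped between groups, and control replicate 2 was nearest to the knockdown for both. Without knockdown replicate 1, 2 or 3 the adjusted p was 0.109, 0.0983 and 0.0813 for Slc25a38 and 0.124, 0.121 and 0.102 for Slc25a39. Without control replicate 1 or 3 it was 0.0926 and 0.0858 for Slc25a38 and 0.110 and 0.137 for Slc25a39. The log2 fold changes in these 5 fits were 0.39 to 0.54 for Slc25a38 and 0.50 to 0.73 for Slc25a39. Without control replicate 2 both were called, at 0.63 and 1.001 (adjusted p = 0.00017 and 1.7e-08). RLE scaling also ended the call of Slc25a39 (adjusted p = 0.0524), and with the GC offset the log2 fold changes were 0.02 and 0.05. Slc25a40, the close relative of Slc25a39, had 5.81, 6.01 and 6.50 CPM in knockdown libraries, against 9.90, 7.19 and 8.12 CPM in control libraries. These did not overlap, but the test just missed (-0.46 ± 0.17, adjusted p = 0.0558). It turned to a call in the higher direction with the GC offset (1.62, adjusted p = 0.000377) and passed in the lower direction without control replicate 2 (-0.56, adjusted p = 0.0017). Its transcript has the lowest GC content of the tested carriers, 39.7%, and that of Slc25a39 has 59.7%. Slc25a44, which carries branched-chain amino acids, had 39.4, 42 and 40.5 CPM in knockdown libraries, against 33.1, 19.2 and 32.2 CPM in control libraries, and did not pass (0.53 ± 0.22, adjusted p = 0.0811), while it did without control replicate 2 (0.32, adjusted p = 0.0012). Slc25a26, the S-adenosylmethionine carrier, overlapped between groups (-0.10 ± 0.22); its gene overlaps Lrig1.

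Of the 7 cofactor and nucleotide carriers, 2 rose and 2 fell. Slc25a42, a coenzyme A carrier and 1 of those that rose, had 3.29, 3.06 and 3.77 CPM in knockdown libraries, against 1.07, 0.719 and 2.02 CPM in control libraries. The groups did not overlap and the level was 2.64-fold higher (log2 fold change 1.40 ± 0.36, adjusted p = 0.0166), not called without knockdown replicate 3 or control replicate 1 (adjusted p = 0.0577 and 0.0568). Slc25a32, the folate carrier of the inner membrane, had 4.35, 4.51 and 4.93 CPM in knockdown libraries, against 11.7, 6.97 and 13.2 CPM in control libraries. Slc25a36, a pyrimidine nucleotide carrier, had 8.83, 8.02 and 10.2 CPM in knockdown libraries, against 19.4, 15.2 and 20.5 CPM in control libraries. Both lay wholly below the control range, with control replicate 2 the lowest control, and were 2.31-fold and 2.04-fold lower (-1.21 ± 0.25 and -1.03 ± 0.17, adjusted p = 0.00665 and 0.00279). With the GC offset the sign turned for each of them, to 0.53 for Slc25a32 (adjusted p = 0.0624) and to a call in the higher direction for Slc25a36 (0.81, adjusted p = 0.00509). With an offset on the GC of the coding part alone Slc25a36 was at -0.04, so its result depends on which part of the transcript enters. Slc25a32 kept its negative sign with the coding GC offset and with the mean GC offset (-0.52 in each). It was called in neither (adjusted p = 0.0879 and 0.0872). Slc25a42 was not called with the GC offset (0.90, adjusted p = 0.0935). Slc25a33, another pyrimidine nucleotide carrier, and Slc25a51, the NAD carrier, did not pass, with log2 fold changes of -0.15 ± 0.15 and 0.20 ± 0.13. With the GC offset Slc25a33 was called lower (-0.50, adjusted p = 0.046) and Slc25a51 higher (0.50, adjusted p = 0.0133). Neither was called with the mean or the coding GC offset. Scaling by library totals also called Slc25a51 higher (0.45, adjusted p = 0.0284). Slc25a16, long linked with coenzyme A, was low (1.15 ± 0.29 CPM in knockdown libraries and 1.95 ± 0.50 CPM in control libraries; SD, n = 3 each) and did not pass (-0.77 ± 0.30, adjusted p = 0.0697), though it did without control replicate 2 (-0.95, adjusted p = 0.0062).

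The mitoferrins, which import iron for heme and iron-sulfur cluster synthesis, gave 1 call, for Slc25a37, which was lower in the knockdown. Slc25a37 (mitoferrin 1), known for its role in erythroid cells, had 60.3, 63.9 and 64.3 CPM in knockdown libraries, against 155, 116 and 152 CPM in control libraries. The knockdown libraries were alike and far below the lowest control, control replicate 2. The level was 2.24-fold lower (log2 fold change -1.16 ± 0.15, adjusted p = 0.000898), stayed lower with the GC offset (-0.98, adjusted p = 0.00141) and was called lower in each of the 23 alternative fits. Erythroid markers were at or near 0 in both groups, as given above. In RefSeq its gene overlaps predicted genes (Gm27222, Gm31748 and Gm31896) that can share reads with it. Slc25a28 (mitoferrin 2), the broadly expressed paralog, had 63.3, 65.9 and 58.8 CPM in knockdown libraries and 66.6, 67.7 and 67.2 CPM in control libraries. The groups did not overlap, yet the difference was small and did not pass (-0.10 ± 0.11, adjusted p = 0.50). With the GC offset it was called lower (-0.79, adjusted p = 0.00275), its transcript having the highest GC content of the tested carriers (60.9%). The ratio of Slc25a37 to Slc25a28 in FPKM was 0.593, 0.604 and 0.681 in knockdown libraries and 1.45, 1.06 and 1.40 in control libraries (exact permutation p = 0.1, adjusted p = 0.15). With the GC offset the difference of their log2 fold changes was -0.19, and without it -1.06.

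Outside the inner membrane, Slc25a46 gave the smallest adjusted p of the family. This outer membrane protein takes part in the fission and fusion of mitochondria. It had 16, 15.1 and 17.4 CPM in knockdown libraries, against 52.3, 47.5 and 45.8 CPM in control libraries. The control values lay far above all knockdown values, and the level was 3.01-fold lower (log2 fold change -1.59 ± 0.13, adjusted p = 0.000132). With 40.7% GC it was also among the carriers poorest in GC, and the GC offset turned it to 0.23 (adjusted p = 0.255), while an offset on the GC of the coding part left it called lower (-1.09). With the mean GC offset it was at -0.27 and not called (adjusted p = 0.17). Slc25a17, the peroxisomal carrier of coenzyme A and other cofactors, overlapped between groups (-0.10 ± 0.13, adjusted p = 0.531) and was called higher with the GC offset (0.67, adjusted p = 0.00827).

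Of the members with no substrate group given, Slc25a47 and Slc25a35 rose. Slc25a47, a carrier best known from liver, had 5.50, 5.74 and 5.96 CPM in knockdown libraries, against 1.98, 2.77 and 2.46 CPM in control libraries. The groups were far apart and the level was 2.39-fold higher (log2 fold change 1.25 ± 0.18, adjusted p = 0.00151), 0.67 with the GC offset (adjusted p = 0.0237). Its gene is the next protein-coding gene to Slc25a29 on chromosome 12, and both rose. Slc25a35 had 25, 27 and 16 counts in knockdown libraries, against 3, 2 and 1 counts in control libraries. Summed, 68 counts against 6 gave a ratio of 10.3 after scaling, with an exact 95% interval of 4.47 to 28.9 that covers counting error only. The log2 fold change of 3.28 ± 0.48 (adjusted p = 0.00155) was the largest rise of the family and stayed with the GC offset (3.05, adjusted p = 0.00424), and the gene was called higher in each of the 20 alternative fits that tested it. At 0.203 FPKM in knockdown libraries and 0.0167 FPKM in control libraries it was the least abundant of the tested carriers. Its gene overlaps Rangrf, which had 4.64 ± 0.56 CPM in knockdown libraries and 6.54 ± 2.53 CPM in control libraries (SD, n = 3 each) and was not called. Slc25a53, whose gene overlaps Zcchc18, did not pass and its groups overlapped (-0.20 ± 0.27). The upstream window of Slc25a47, at chr12:108850879-108851128 on the plus strand and marked as above, holds 1 CCAAT match and no GC box.
Slc25a47: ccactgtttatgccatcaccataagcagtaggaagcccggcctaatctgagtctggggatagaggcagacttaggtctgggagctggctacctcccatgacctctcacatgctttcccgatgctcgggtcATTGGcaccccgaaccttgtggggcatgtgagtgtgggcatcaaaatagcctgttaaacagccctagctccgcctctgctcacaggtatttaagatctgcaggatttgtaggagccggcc

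**Figure D4:**
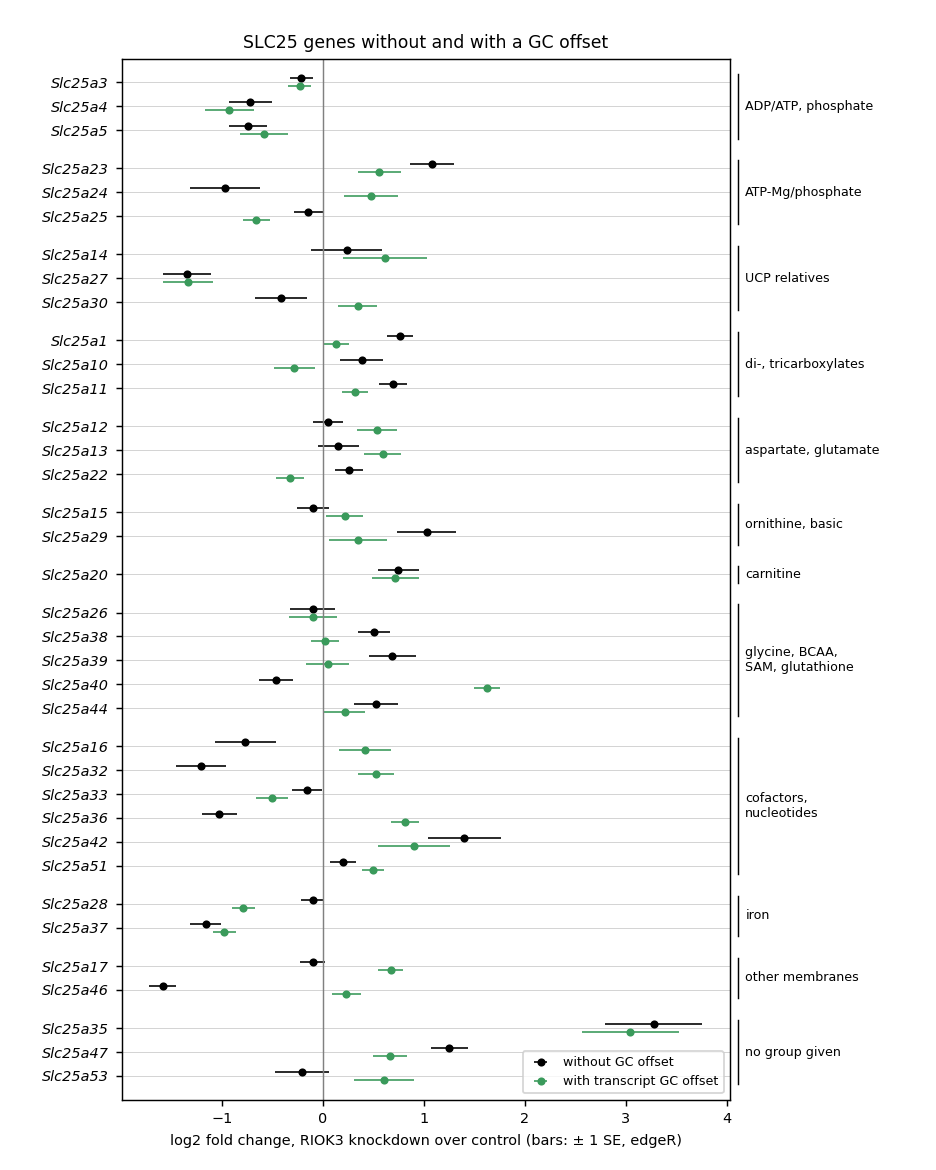
Log2 fold change (RIOK3 knockdown over control) of 36 tested SLC25 genes, without (black) and with (green) an offset that removes each library's trend on transcript GC content; bars are ± 1 SE. Slc25a4, Slc25a27, Slc25a37, Slc25a35 and Slc25a47 keep their call. Slc25a36, Slc25a40 and Slc25a17 change sign and are called higher with the offset. Other carriers change sign without a call, among them Slc25a46, Slc25a32 and Slc25a24 (upward) and Slc25a10 and Slc25a22 (downward).

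Genes that work with the carriers were followed in 9 lists, which held 99 tested genes. Of these, 21 rose and 19 fell, against 48% of all tested genes called, and with the GC offset 16 were called higher and 7 lower, against 31.6% of all genes. The count of partner genes called was thus below the background in both fits. The 40 calls became 21, 19 and 23 without knockdown replicate 1, 2 or 3, 26 without control replicate 1 and 72 without control replicate 2. Of all tested genes, 32.7, 32.4, 34.9, 38.4 and 71.6% were called in these fits, in the same order, so the partner count moved with the background. The carnitine shuttle and beta-oxidation list had 5 higher and 1 lower of 11, with a median log2 fold change of 0.45. Crat (carnitine acetyltransferase) had 17.9 ± 0.30 CPM in knockdown libraries and 8.69 ± 1.08 CPM in control libraries (log2 fold change 1.04 ± 0.14, adjusted p = 0.00116). Cpt2, which remakes acyl-CoA in the matrix, had 10.9 ± 0.35 CPM in knockdown libraries and 5.42 ± 1.07 CPM in control libraries (1.0 ± 0.18, adjusted p = 0.00335). These were the 2 of the 5 risers still called higher with the GC offset. The other risers were Cpt1a, Cpt1c and Hadha, and Etfdh fell. In this and the following lists, genes that only complete a count were named after their values were seen.

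The iron-sulfur and heme list had 2 higher (Alas1 and Nfs1) and 2 lower (Ppox among them) of 10. Alas1, the first enzyme of heme synthesis, had 86.6 ± 1.30 CPM in knockdown libraries and 42 ± 1.40 CPM in control libraries (1.05 ± 0.11, adjusted p = 0.000401), and was called higher with the GC offset too (0.72). The one-carbon and ornithine list had 4 higher (Pycr1, Shmt2, Oat and Aldh18a1) and 3 lower (Mthfd2l and Arg2 among them) of 11. In that list Pycr1, the last enzyme of proline synthesis, had 19.5 ± 0.88 CPM in knockdown libraries and 9.62 ± 0.58 CPM in control libraries (1.018 ± 0.13, adjusted p = 0.000764). Mthfd2l, a folate enzyme of the matrix, had 3.12 ± 0.69 CPM in knockdown libraries and 11.8 ± 3.61 CPM in control libraries (-1.92 ± 0.29, adjusted p = 0.00177). Pycr1 and Mthfd2l kept their calls with the GC offset (0.67 and -0.80). All ± values of CPM in these lists are SDs with n = 3 in each group, and all ± values of fold changes are SEs.

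The ATP synthase list had 2 higher (Atp5a1 and Atp5g2) and 3 lower (Atp5j, Atp5k and Atp5pb) of 16. Atp5j (coupling factor 6) had 83.5 ± 0.33 CPM in knockdown libraries and 148 ± 25.9 CPM in control libraries (-0.83 ± 0.15, adjusted p = 0.0042), and was called lower with the GC offset (-1.32) but higher with the offset on the GC of the coding part (0.71, adjusted p = 0.0453). Atp5pb (subunit b) had 331 ± 17.2 CPM in knockdown libraries and 552 ± 150.1 CPM in control libraries (-0.74 ± 0.20, adjusted p = 0.0195) and lost the call with it (-0.65) and without knockdown replicate 1, 2 or 3 (adjusted p = 0.0775, 0.0836 and 0.0613), while without control replicate 2 it was called at a smaller -0.49 (adjusted p = 3.4e-06). The import list, which holds the TOM70 and TIM22 parts that insert carriers, had 1 higher (Timm29) and 4 lower (Tomm70a, Timm8a1, Timm9 and Tomm7) of 16. Tomm70a, the receptor for carrier precursors on the outer membrane, had 33.8 ± 1.68 CPM in knockdown libraries and 126 ± 12.6 CPM in control libraries (-1.90 ± 0.13, adjusted p = 6.8e-05). With 40.7% GC it was at -0.06 with the GC offset. Timm8a1, a small chaperone of the intermembrane space, had 18.9 ± 0.17 CPM in knockdown libraries and 34.7 ± 8.72 CPM in control libraries (-0.88 ± 0.19, adjusted p = 0.0083; -0.74 with the offset, adjusted p = 0.0507).

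The malate-aspartate and citrate list had 3 higher (Idh2 and Cs among them) and 1 lower (Gpd2) of 12. Idh2, the NADP-dependent isocitrate dehydrogenase of the matrix, had 301 ± 10.3 CPM in knockdown libraries and 192 ± 16.6 CPM in control libraries (0.65 ± 0.12, adjusted p = 0.00423). Gpd2, of the glycerol phosphate shuttle, had 18.4 ± 1.53 CPM in knockdown libraries and 29.3 ± 6.0 CPM in control libraries (-0.67 ± 0.18, adjusted p = 0.0207). Neither was called with the GC offset (0.20 and -0.13), and Gpd2 lost its call without any of knockdown replicates 1, 2 and 3 (adjusted p = 0.0861, 0.0530 and 0.0827) or control replicates 1 and 3 (0.0632 and 0.0687), but was called without control replicate 2 (-0.83, adjusted p = 3.7e-07). Of the outer membrane channels Vdac1 rose (0.41 ± 0.13, adjusted p = 0.0295) and Vdac2 and Vdac3 were not called. Without knockdown replicate 1, 2 or 3 or control replicate 3 Vdac1 was not called (adjusted p = 0.0911, 0.0853, 0.110 and 0.0587), and without control replicate 2 it was (0.34, adjusted p = 0.00018). Among the carriers outside the symbol rule 2 rose and 1 fell of 10. These were Sfxn3, called higher, and 2 named by the rule: Mtch1, a carrier relative of the outer membrane (0.69 ± 0.13, adjusted p = 0.00405), and Sfxn1, a serine transporter (-0.95 ± 0.18, adjusted p = 0.00459), neither called with the GC offset. The list of regulators had 1 higher (Nrf1) and 4 lower (Tfam, Tfb2m, Ppargc1a and Gabpa) of 10. Tfam and Tfb2m, which serve transcription of mitochondrial DNA, were both lower (-0.92 ± 0.14 and -1.76 ± 0.17, adjusted p = 0.00166 and 0.000295), and with the GC offset neither was called (-0.11 and -0.34).

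**Figure D5:**
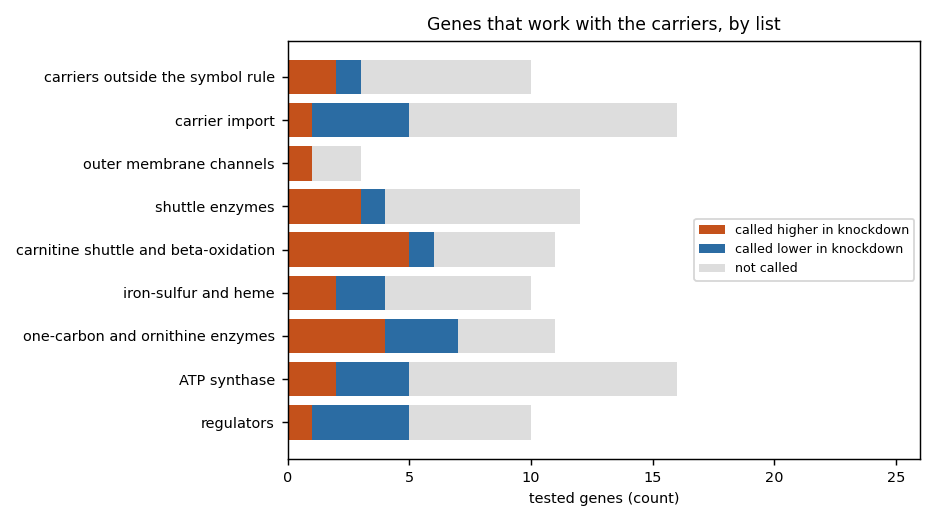
Number of tested genes called higher (orange), called lower (blue) or not called (grey) in the RIOK3 knockdown, for 9 lists of genes that work with the carriers. Of 11 genes in the carnitine list 5 rose, and in the import list of 16 and the regulators list of 10 4 fell in each.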

How the data were processed

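Per the labels' protocols, a stranded mRNA kit was used on 2 μg of total RNA and paired reads of 150 bases were sequenced. Per the submitters' processing notes HISAT2, MultiQC and GRCm39 were used, in roles that are not spelled out. The authors deposited raw counts per gene and FPKM values of 21879 genes, which per their unit are counts divided by gene length and library total. The sources used here do not name the counter, its strand setting or the annotation release. The main test was that of edgeR 4.0.16 (R 4.3.3) on the counts (filterByExpr, TMM, robust quasi-likelihood test, Benjamini-Hochberg over all 13067 tested genes, called at an adjusted p under 0.05). Log2 fold changes are knockdown over control, and each SE is the change divided by the root of the F statistic.

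Scaling by library totals in place of TMM moved the median log2 fold change of all genes to 0.26. That turned the sign of 8 carriers, none of them called, and fold changes are therefore relative to the TMM scale. GC content came from GENCODE M21 transcripts (GRCm38), 1 per gene with the longest coding part, for 13043 genes. GC offsets were loess trends (span 0.3) of each library. Promoter windows and overlapping genes came from RefSeq on GRCm38.p6. Genes named were the 6 largest rises and falls among called carriers, the 5 most abundant carriers, carriers by role, and 2 genes with the smallest p of each partner list. Naif1, Rnf167, Rangrf and Lrig1 were named for overlapping a carrier gene. The members, lists and alternatives were chosen with earlier results of these data known. Alternatives were DESeq2 1.42.0, limma 3.58.1 (voom with quality weights, and trend on log2 FPKM with pseudocounts of 1 and 0.1), other scalings, filters, offsets, a replicate block and each library left out. The fits were tested on simulated counts. Slc25a21 was listed by role and is not analysed here, and a few other genes are counted in totals but not reported by name.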

Additional observations from a re-analysis of the deposited data

How the results depend on the processing

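The calls for Slc25a27 and Slc25a37 (lower) and Slc25a35 (higher) stood in each alternative fit that tested them. Without single libraries, 4340 to 9592 genes, 7 to 14 higher carriers, 5 to 13 lower carriers and 19 to 72 partner genes were called, and the carriers' median log2 fold change was -0.0946 to 0.0063. Deviations from the group means correlated at -0.08, 0.04 and 0.05 between libraries with the same replicate number. With 3 libraries per group and control replicate 2 apart, these values cannot show whether the numbers pair the libraries. With the replicate block, 5615 genes, 9 higher and 7 lower carriers were called.

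The carriers' median moved most under the offsets on transcript GC, alone, with length, with the replicate block or without control replicate 2. It moved less under mean and coding GC than with library totals. The counts of calls moved most without control replicate 2, with limma-voom and with GC offsets. The offset on GC, on GC with the replicate block and on mean GC called 4118, 3101 and 4137 genes, 7, 4 and 7 higher carriers, and 23, 19 and 25 partner genes. The offset on coding GC called 7 higher and 7 lower carriers (16.9% and 16.2% of all genes), and GC with length 10 higher and 7 lower of 5164 called genes (21.5% and 18% of all genes). The GC offset without control replicate 2 was added after seeing the data, like the mean and coding GC offsets. It called 20 higher and 8 lower carriers and 66 partner genes, with 61.5% of all genes called (33.7% higher and 27.9% lower). Limma-voom called 9477 genes (35.8% of all genes higher and 36.8% lower), 15 higher and 13 lower carriers and 66 partner genes. A filter of 5 CPM left 7 higher and 8 lower carriers (23.8% and 29.1% of all genes). The fits on log2 FPKM called 12, 12 and 13 higher carriers (40.9, 40.3 and 19.1% of all genes) and 4 lower carriers each (20.3, 20.3 and 11.5%). The carriers' median was 0.0926 with upper-quartile factors, 0.15 with library totals, -0.0030 with no filter and 0.10 with limma-voom. It was 0.33 with the GC offset, 0.35 with length added and 0.33 with the block. It was 0.0796 with mean GC, -0.0383 with coding GC, and 0.32 with the GC offset and without control replicate 2. On log2 FPKM it was 0.16, 0.18 and 0.10 (pseudocounts 1 and 0.1, and no filter). The cause of these moves was not tested.

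For the carriers and the 2 partner genes with the smallest p of each list, results called in either fit turned sign under GC offsets alone. Some other partner genes turned sign without control replicate 2 and were then called. Library totals turned the sign of 8 carriers called in neither fit. Under the offsets on GC, GC and length, GC with the replicate block, and GC without control replicate 2, the log2 fold change was 0.67, 0.66, 0.67 and 0.74 for Slc25a17, 0.53, 0.69, 0.54 and 0.41 for Slc25a32 and 0.81, 0.92, 0.81 and 0.83 for Slc25a36. In the same 4 fits it was 1.62, 1.52, 1.63 and 1.67 for Slc25a40 and 0.23, 0.27, 0.24 and 0.38 for Slc25a46. Slc25a32 and Slc25a46 kept their negative sign under mean GC (-0.52 and -0.27) and under coding GC (-0.52 and -1.09). Under mean GC the values were 0.43 for Slc25a17, 1.18 for Slc25a36, -0.0355 for Slc25a38, 1.58 for Slc25a40, 0.21 for Atp5pb, 0.36 for Tfam, 0.89 for Vdac3, 0.15 for Tomm70a and 0.0595 for Gpd2. Under coding GC they were 1.77 for Slc25a40, 0.20 for Tfam, 1.29 for Vdac3 and 0.71 for Atp5j, which was then called higher. Under GC and length Vdac3 was at 0.57 and Tomm70a at 0.0780. Without control replicate 2 and with the GC offset, Slc25a15 was at 0.36, Slc25a24 at 0.22 and Slc25a53 at 0.85. In that fit Tfam was at 0.12, Vdac3 at 0.81 and Tomm70a at 0.0210. Depth limits Slc25a29 and Slc25a35, with under 70 counts in every library, and the 7 untested members.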
